A study of Mus musculus with 12 samples.

Results

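Collagen chain genes encode the polypeptides that wind into the triple helices of collagen, the main structural protein family of the extracellular matrix. They were taken here as all genes whose symbol consists of Col, a type number, the letter a and a chain number. This rule found 44 of the 52636 genes in the count tables. Of these, 9 encode fibrillar chains (types 1, 2, 3, 5 and 11), 6 encode the type 4 chains of basement membranes, and 29 belong to other classes. A count was found for each of the 44 in at least 1 library.

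Fibrillar chains assemble into the banded fibrils of connective tissue, cartilage and bone, while type 4 chains form the sheet-like network under epithelia and around vessels. The other classes attach to fibril surfaces, form beaded filaments or short-chain networks, anchor epithelia, or stay in the cell membrane. Each chain is made as a procollagen that is hydroxylated, folded and exported, and that is then trimmed and cross-linked outside the cell. In embryoid bodies (EBs), aggregates in which embryonic stem cells (ESCs) leave pluripotency, type 4 chains are known as products of primitive endoderm and fibrillar chains as products of mesenchyme.

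The libraries came from the E14 line, a mouse ESC line from a blastocyst. Cells without a knockdown, called WT, and cells in which an shRNA knocked down (KD) the circular RNA circKat6b-e2 of the Kat6b gene were each sequenced as undifferentiated ESCs and as EBs at day 6. The 4 groups were thus WT ESCs, KD ESCs, WT EBs and KD EBs, with 3 libraries each, which the series describes as biological replicates. ESCs were cultured with LIF, the MEK inhibitor PD0325901 and the GSK3 inhibitor CHIR99021, per the labels' protocols. No label says if WT cells received a control shRNA, or if KD cells were 1 clone or a pool, so other differences between these populations cannot be told apart from the KD. RNA was selected by its poly-A tail, which circular RNA lacks, and the level of circKat6b-e2 was not measured. The linear host gene Kat6b stood at 67.0 ± 9.87 counts scaled to library size (CPM) in WT ESCs, 88.8 ± 3.65 in KD ESCs, 35.8 ± 1.14 in WT EBs and 70.6 ± 1.46 in KD EBs (mean ± SD, n = 3).

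Library totals ran from 25.4 to 37.8 M counts. Counts from 1 to 10 were even more often than odd, in 61.7 to 68.7% of cases per library, and the file headers name no option for counting pairs, so mates of a read pair may have been counted singly. Scaled within each stage, markers of pluripotent cells summed to between 6992 and 8836 CPM in ESC libraries. They summed to between 185 and 194 CPM in WT EBs and to between 372 and 419 CPM in KD EBs. ESC WT replicate 2 stood apart from the other ESC libraries, with a normalization factor of 0.874 against 1.00 to 1.05, and results that rest on it are given with and without it. Counting did not use strand, and exons shared with another gene made up 6.07% of the exon length of Col9a3 and 5.65% of Col4a3. The share was 3.39% for Col6a4, 2.50% for Col5a1, 1.88% for Col20a1 and 1.44% for Col3a1, and lower for the other members.

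Upstream sequences are shown for Col3a1 and Col1a2, fibrillar genes that rose in KD EBs, and for Col8a2, the member with the largest fall there, because the values below turn on these 3 genes. RefSeq promoter windows (GRCm38.p6) were matched for 35 of the 44 genes, in 38 windows. Each line holds the 150 bases before the start, 5′ to 3′ on the gene's own strand, with matches to 3 motifs on either strand in capitals. The motifs were TATAAA, the core of a TATA box, the CCAAT box, and GGGCGG, a GC box, and their matches did not overlap one another's. The windows are chr1:45311388-45311537 (plus strand) for Col3a1, chr6:4505468-4505617 (plus) for Col1a2 and chr4:126286644-126286793 (plus) for Col8a2.
Col3a1: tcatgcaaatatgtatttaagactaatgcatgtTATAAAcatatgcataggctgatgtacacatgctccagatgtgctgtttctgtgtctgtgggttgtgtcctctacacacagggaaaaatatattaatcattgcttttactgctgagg
Col1a2: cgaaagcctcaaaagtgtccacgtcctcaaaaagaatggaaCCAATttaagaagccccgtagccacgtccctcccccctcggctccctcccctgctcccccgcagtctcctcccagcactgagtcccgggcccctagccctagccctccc
Col8a2: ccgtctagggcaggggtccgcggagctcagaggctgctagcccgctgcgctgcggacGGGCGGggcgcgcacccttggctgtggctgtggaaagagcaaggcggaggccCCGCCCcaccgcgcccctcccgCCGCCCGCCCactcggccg
The Col3a1 window held TATAAA, beginning 117 bases before the start, and had a GC content of 37.3%. The Col1a2 window held CCAAT, beginning 109 bases before the start, and the Col8a2 window held only GGGCGG matches, at a GC content of 78%. TATAAA was found in 4 of 38 collagen windows and in 7.57% of all 32851 windows, CCAAT in 8 of 38 and 24.5%, and GGGCGG in 19 of 38 and 28.6%. Median GC content was 62.7% in the collagen windows and 54% in all windows. Among windows of genes called in KD EBs, TATAAA was in 2 of 13 windows of higher genes and 0 of 13 windows of lower genes. CCAAT was in 4 and 3 of these windows, and GGGCGG in 8 and 6. Of the lower genes, Col6a2, Col9a1 and Col18a1 had 2 windows each, and Col2a1, Col9a3 and Col26a1 had none. These matches describe the letters of the windows only.

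Several members lie side by side in the genome. Col4a1 and Col4a2, the chains of the common type 4 molecule, start head to head on chromosome 8, and their first exons share 22 bases at chr8:11312805-11312826 (GRCm38.p6). The shared stretch is shown because the annotated first bases of both genes lie at its ends.
Col4a1 and Col4a2, plus strand: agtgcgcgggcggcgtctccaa
Col4a6 and Col4a5 lie head to head on chromosome X, 1.31 kb apart, and Col4a4 and Col4a3 head to head on chromosome 1. Col3a1 and Col5a2 face each other tail to tail on chromosome 1, 24.6 kb apart. Col6a2 and Col6a1 lie on the same strand of chromosome 10, 85.2 kb apart.

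In undifferentiated ESCs collagen transcripts were few. Scaled over all 12 libraries, all 44 genes summed to 394 ± 5.79 CPM in WT and 389 ± 13.6 CPM in KD ESCs. Per kilobase of exon, Col18a1, the basement membrane multiplexin that carries endostatin, stood highest at 32.3 ± 0.64 CPM per kb in WT and 32.2 ± 1.35 in KD ESCs. That was 50.6% and 50.9% of the collagen sum on this scale. Col9a2 followed at 11.4 ± 0.59 and 11.9 ± 0.53 CPM per kb, and Col9a3 at 3.66 ± 0.28 and 3.31 ± 0.36. Both encode chains of type 9, a collagen of the fibril surface in cartilage. Neighbours in this order from Col18a1 to Col9a3 did not overlap in either group, while those from the fourth to the ninth place in WT ESCs did.

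KD and WT ESCs were compared to ask what the knockdown changes before differentiation. In this comparison 26 members passed the filter on low counts and 0 were called (edgeR quasi-likelihood test, Benjamini-Hochberg adjusted p under 0.05), against 0.603% of all tested genes. Their median log2 fold change was −0.12, against 0.01 over all tested genes. At an unadjusted p under 0.05 there were 3 members, Col11a1, Col17a1 and Col27a1, and 3447 of 16081 genes. DESeq2 called 1 member, Col27a1, and gave no adjusted p for Col11a1 and Col17a1.

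Col11a1, a minor fibrillar chain found within cartilage fibrils, read 0.95, 0.582 and 0.581 CPM in the WT ESC libraries and 1.56, 1.88 and 2.08 CPM in the KD ESC libraries. The groups did not overlap, and the log2 fold change of 1.37 (SE 0.41) missed the threshold (adjusted p = 0.111 by edgeR). Col27a1, a later described fibrillar chain of cartilage, read 5.22, 7.24 and 5.54 CPM in WT and 2.70, 3.66 and 4.04 CPM in KD ESCs. It stood lower in each KD library, with a log2 fold change of −0.78 (SE 0.24, adjusted p = 0.116 by edgeR). Col17a1, the transmembrane collagen of hemidesmosomes, was named after its values were seen. It read 1.27, 1.46 and 0.888 CPM in WT and 3.77, 3.29 and 1.45 CPM in KD ESCs (log2 fold change 1.23, SE 0.41, adjusted p = 0.132 by edgeR), and without ESC WT replicate 2 it was the 1 member called. Col18a1 read 196, 189 and 196 CPM in WT and 201, 185 and 195 CPM in KD ESCs, with a log2 fold change of 0.00 (SE 0.07).

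The formation of EBs raised most collagen transcripts in WT and in KD cells. All 44 genes summed to 2295 ± 52.3 CPM in WT EBs and 3114 ± 76.6 CPM in KD EBs, on the scale of all 12 libraries. From WT ESCs to WT EBs 29 of 39 tested members rose and 5 fell (edgeR), together 87.2%, against 79.8% of all tested genes, with 42.5% for a rise and 37.3% for a fall. From KD ESCs to KD EBs 29 of 39 rose and 7 fell, together 92.3%, against 79.8% of all tested genes, with the same 42.5% for a rise and 37.3% for a fall. The median log2 fold change was 2.47 in WT and 4.0 in KD cells, against 0.17 and 0.15 over all tested genes, and both collagen medians kept their value with genes that had no ESC count set at their lower bound. The 5 comparisons reported here share libraries, so their counts are not independent of each other.

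All 9 fibrillar genes were called in both cell populations, against 79.8% of all tested genes, with 8 higher and 1, Col5a3, lower in EBs. Col1a1, the major chain of type 1 collagen, went from 2.30, 1.28 and 2.43 CPM in the WT ESC libraries to 347, 359 and 357 CPM in the WT EB libraries, a 174-fold rise (log2 fold change 7.44, SE 0.15, adjusted p = 2.00e-15 by edgeR). In KD cells it went from 2.57, 2.12 and 3.32 to 359, 366 and 354 CPM, a 134-fold rise (log2 fold change 7.06, SE 0.14, adjusted p = 2.63e-15 by edgeR). These CPM are on the scale of all 12 libraries, and the ESC and EB libraries of either population were far apart. Col5a2, a chain of type 5 that sits inside type 1 fibrils, rose 1.91-fold in WT cells (log2 fold change 0.93, SE 0.39, adjusted p = 0.0393 by edgeR) and 23.4-fold in KD cells (4.55, SE 0.35, adjusted p = 5.55e-09 by edgeR). Its WT call held in 3 of the 6 fits that left out 1 library of either WT group, and without ESC WT replicate 1 the log2 fold change was 0.54. Col5a3, the least common chain of type 5, fell by 1.92 (SE 0.27) in WT and by 2.63 (SE 0.29) in KD cells on the log2 scale.

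Type 4 genes had the highest median of the 3 classes, with a log2 fold change of 5.84 in WT and 6.34 in KD cells over 5 tested genes. In WT cells 5 of 5 rose and in KD cells 4 of 5, against 42.5% of all tested genes called higher in either population. Col4a4, one of the chains restricted to a few specialised basement membranes, was the exception in KD cells (log2 fold change 1.16, SE 1.04, adjusted p = 0.314 by edgeR), and its WT call held in 2 of 6 fits with 1 library left out. Col4a6, an X-linked chain, rose from 4 counts in the 3 WT ESC libraries together to 3556 in the 3 WT EB libraries (log2 fold change 9.15, SE 0.35). Col4a3 had 4 counts in WT EBs, 18 in KD EBs and none in ESCs, and was not tested in either comparison.

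Among the other classes 16 of 25 tested genes rose and 4 fell in WT cells, and 17 rose and 6 fell in KD cells. Their called share was 80% in WT cells, near the 79.8% of all tested genes, and 92% in KD cells, against the same 79.8%. Falls in both were those of Col6a4 and Col6a6, chains related to type 6, and of Col9a2 and Col9a3. Col13a1 and Col17a1, transmembrane collagens, were called lower in KD cells and not in WT cells, and the call of Col13a1 depended on the scaling (log2 fold change −0.65, and −0.29 without a call when libraries were scaled by total count). The difference between the populations was −0.85 for Col13a1 and −2.82 for Col17a1 (adjusted p = 0.0390 and 0.0455 by edgeR), each called in 4 of 12 fits with 1 library left out. Col9a1, also of type 9, had no count in WT ESCs and 2095 in WT EBs, at least 482-fold higher with a floor of 3 counts over the group. Col24a1 was at least 53.4-fold higher in WT EBs than in WT ESCs by the same floor, and Col25a1 at least 59.8-fold higher in KD EBs than in KD ESCs. Col3a1 had no count in KD ESCs and 79053 in KD EBs, at least 17974-fold higher. In WT ESCs its 15 counts all lay in ESC WT replicate 2. The lower bounds on these folds assume 1 count per read pair, and would be smaller if mates were counted singly.

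**Figure D1:**
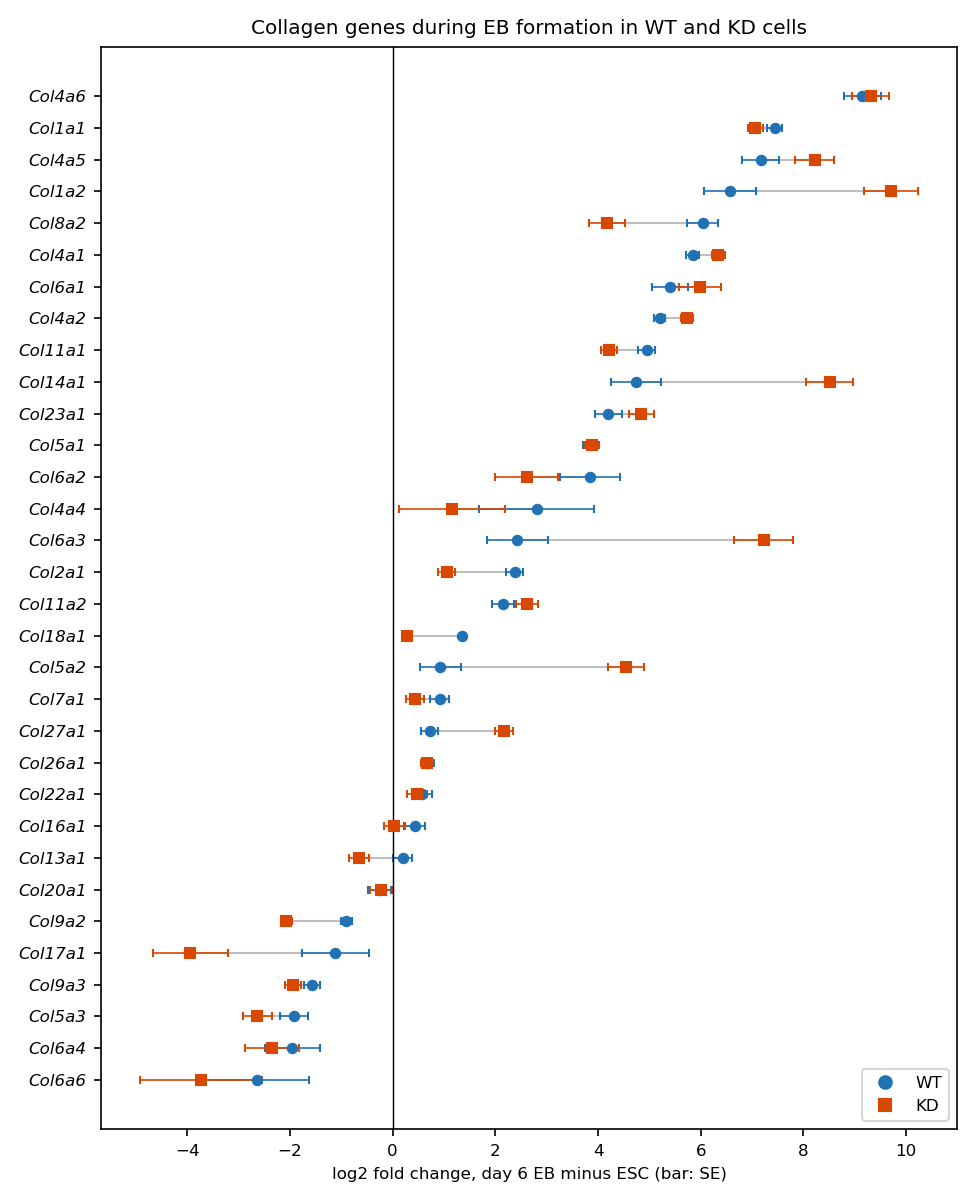
Log2 fold change from ESCs to day 6 EBs (x axis, bar: SE, n = 3 libraries per group) of 32 collagen genes (y axis), in WT cells (blue circles) and KD cells (orange squares); 7 tested genes with 3 or fewer counts in an ESC group are not drawn. Most points of both kinds lie above 0, and Col5a2, Col6a3, Col14a1 and Col1a2 have the KD point farther to the right than the WT point.

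In day 6 EBs collagen transcripts differed between KD and WT in both directions. KD was set against WT here to ask how the knockdown alters differentiated cells. Of 38 tested members 16 were higher and 13 lower in KD EBs (edgeR), a share of 76.3% against 55.7% of all tested genes. Calls in the higher direction covered 28% and those in the lower direction 27.7% of all tested genes. A change of at least 1 on the log2 scale was called for 15 members and for 13.8% of all tested genes. The median log2 fold change of the members was −0.09, against 0.00 over all tested genes. In 26 of the 29 members the call was made in each of the 6 fits that left out 1 EB library. Markers of pluripotent cells also moved in KD EBs, with 5 of 6 higher and 0 lower. The nuclear receptor gene Esrrb rose from 6.73 to 42.0 CPM (log2 fold change 2.64, SE 0.11), Klf2 from 4.72 to 28.8 CPM (2.61, SE 0.11) and Dppa5a from 53.6 to 160 CPM (1.58, SE 0.05), each called in 6 of 6 fits with 1 library left out, while Nanog read 55.6 and 52.1 CPM and did not pass. Their part in the collagen results was not tested. In bulk RNA such as this, fewer cells of a type and less RNA per cell cannot be told apart.

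By class, 6 of 9 fibrillar genes were higher and 2 lower, with a median log2 fold change of 0.55. Type 4 had 4 of 5 tested genes higher and 0 lower, with a median of 0.25, and the other classes had 6 of 24 higher and 11 lower, with a median of −0.43. Over all tested genes 28% were called higher and 27.7% lower. Summed over genes, fibrillar transcripts stood at 819 ± 11.1 CPM in WT and 1742 ± 34.2 CPM in KD EBs, and type 4 transcripts at 960 ± 21.1 and 1298 ± 25.2 CPM. Transcripts of the other classes stood at 962 ± 22.6 CPM in WT and 530 ± 16.7 CPM in KD EBs. As a share of all collagen counts, fibrillar genes made up 29.9% in WT and 48.8% in KD EBs, type 4 genes 35.0% and 36.4%, and the other classes 35.1% and 14.8%. These sums were not tested, and a single gene made up most of the difference in each of 2 classes. Col3a1 accounted for 11.3 ± 2.5 CPM in WT and 828 ± 16.9 CPM in KD EBs, and the fibrillar sum without it was 808 ± 9.82 and 914 ± 20.3 CPM. Col18a1 accounted for 696 ± 18.4 CPM in WT and 313 ± 8.19 CPM in KD EBs, and the sum of the other classes without it was 266 ± 4.47 and 216 ± 9.75 CPM. Both sums without a gene were added after the values were seen.

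**Figure D2:**
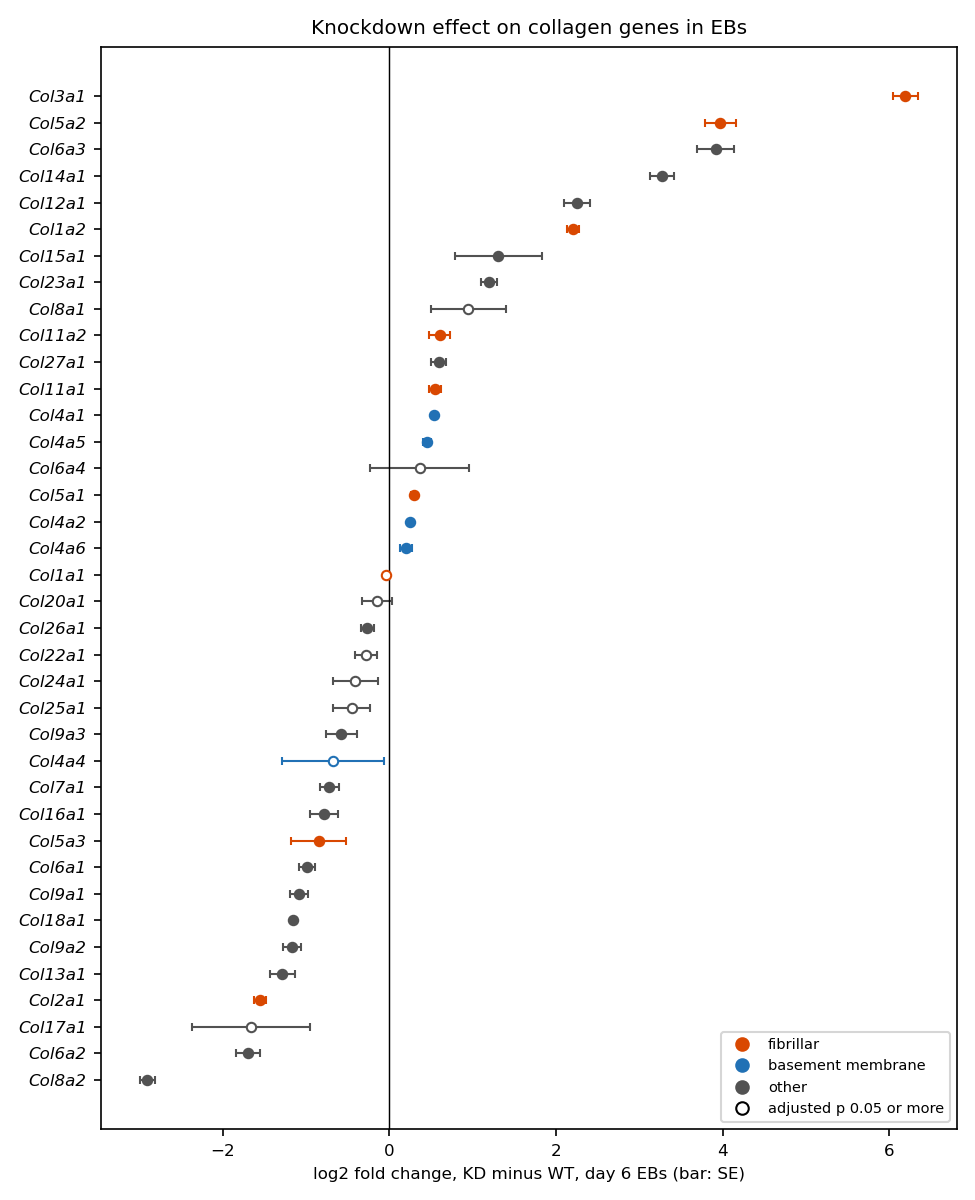
Log2 fold change of KD minus WT in day 6 EBs (x axis, bar: SE, n = 3 libraries per group) for the 38 tested collagen genes (y axis), sorted by value and coloured by class; filled points passed the edgeR threshold and open points did not. Col3a1 lies farthest to the right at 6.19 and Col8a2 farthest to the left at −2.90, while the type 4 genes that passed lie between 0.20 and 0.54.

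Col3a1 showed the largest rise of any member. It encodes the single chain of type 3 collagen, a fibril former of extensible tissues such as vessel wall and skin. The WT EB libraries read 13.8, 8.75 and 11.4 CPM and the KD EB libraries 808, 836 and 838 CPM, a 73.1-fold difference (log2 fold change 6.19, SE 0.15, adjusted p = 5.94e-06 by edgeR). Every KD library was far above every WT library. Its neighbour Col5a2 read 1.03, 0.743 and 0.834 CPM in WT and 14.2, 13.4 and 13.4 CPM in KD EBs, a 15.7-fold rise (log2 fold change 3.97, SE 0.19, adjusted p = 9.45e-18 by edgeR). Both genes thus stood low in WT EBs and many times higher in each KD library.

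Of the genes of type 1 collagen, the main fibril protein of skin, tendon and bone, Col1a2 passed the test and Col1a1 did not. Col1a2, the second chain, read 18.2, 15.5 and 18.5 CPM in WT and 80.9, 79.3 and 81.0 CPM in KD EBs, a 4.61-fold rise (log2 fold change 2.21, SE 0.07, adjusted p = 2.69e-22 by edgeR). Col1a1 read 415, 430 and 425 CPM in WT and 415, 419 and 403 CPM in KD EBs. These values overlapped, and the log2 fold change of −0.04 (SE 0.03) did not pass (adjusted p = 0.308 by edgeR); in a fit of all 12 libraries it was 0.02.

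Col5a1, the main chain of type 5, read 266, 259 and 276 CPM in WT and 307, 349 and 331 CPM in KD EBs. Its rise was 1.23-fold (log2 fold change 0.30, SE 0.04, adjusted p = 2.94e-07 by edgeR), with no overlap between the groups. Col5a3 read 1.43, 1.91 and 2.1 CPM in WT and 0.993, 1.08 and 0.943 CPM in KD EBs (log2 fold change −0.85, SE 0.33, adjusted p = 0.0313 by edgeR), a fall that was called in 2 of 6 fits with 1 library left out. The 3 chains of type 5 thus held a large rise, a small rise and a fall.

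The cartilage fibril genes also split. Col2a1, the chain of type 2 collagen and the main fibril protein of cartilage, read 64.6, 53.6 and 56.2 CPM in WT and 19.4, 20.7 and 19.5 CPM in KD EBs. It was 2.93-fold lower in KD EBs (log2 fold change −1.55, SE 0.08, adjusted p = 3.04e-17 by edgeR), and each KD library lay below each WT library. Col11a1, its partner in the cartilage fibril, read 31.9, 30.8 and 31.4 CPM in WT and 49.1, 42.2 and 46.2 CPM in KD EBs, a 1.46-fold rise (log2 fold change 0.55, SE 0.07, adjusted p = 8.22e-08 by edgeR). Col11a2, which encodes another chain of type 11, read 7.69, 7.62 and 8.34 CPM in WT and 11.1, 11.6 and 13.2 CPM in KD EBs (log2 fold change 0.60, SE 0.13, adjusted p = 1.83e-04 by edgeR). Both type 11 genes were thus higher in every KD library while Col2a1 was lower.

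Markers of fibroblasts and mesenchyme, which make fibrillar collagens, were followed beside the fibrillar genes. In EBs 9 of 11 tested markers rose and 1 fell, against 28% of all tested genes called higher and 27.7% lower, and the 12 together summed to between 581 and 609 CPM in WT and between 1244 and 1250 CPM in KD EBs, with Fap at 0 in both. Among them the matricellular protein gene Postn rose from 6.60 to 151 CPM, while Prrx2 read 65.8 and 62.3 CPM and did not pass, and Thy1 fell from 16.6 to 3.96 CPM. Cartilage markers summed to between 58.7 and 63.3 CPM in WT and between 54.2 and 56.2 CPM in KD EBs, with 1 of 6 tested higher and 3 lower, and with Cnmd and Snorc at 0 in KD EBs. Bone markers stayed at or under 2.65 CPM in sum in every EB library, with Dmp1 at 0 in both groups and Ibsp at 0 in WT EBs. The part of these cell types in the fibrillar results was not tested.

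Type 4 collagen rose in KD EBs by smaller steps. Col4a1 read 541, 546 and 571 CPM in WT and 780, 819 and 810 CPM in KD EBs, a 1.45-fold rise (log2 fold change 0.54, SE 0.03, adjusted p = 5.37e-16 by edgeR). Col4a2, its head-to-head neighbour and partner chain, read 313, 303 and 313 CPM in WT and 361, 373 and 374 CPM in KD EBs, a 1.19-fold rise (log2 fold change 0.25, SE 0.03, adjusted p = 4.46e-08 by edgeR). Neither gene had a KD library within the WT range. Of the X-linked pair, Col4a5 read 61.9, 59.9 and 60.7 CPM in WT and 86.3, 85.5 and 78.4 CPM in KD EBs (log2 fold change 0.45, SE 0.05, adjusted p = 3.62e-09 by edgeR). Col4a6 read 35.0, 35.1 and 38.7 CPM in WT and 41.2, 39.6 and 44.4 CPM in KD EBs, a 1.15-fold rise (log2 fold change 0.20, SE 0.07, adjusted p = 0.0150 by edgeR). The groups stood close for Col4a6, which was called in 3 of 6 fits with 1 library left out, and neither X-linked gene was called in a fit of all 12 libraries.

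Markers of cell types that make basement membranes were followed as well. Markers of primitive and parietal endoderm summed to between 1251 and 1281 CPM in WT and between 1552 and 1604 CPM in KD EBs, with 8 of 10 higher and 1 lower, against 28% and 27.7% of all tested genes. Sparc, the most abundant of them, read 639 and 634 CPM, and the basement membrane laminin gene Lama1 rose from 40.6 to 111 CPM. The 1 lower marker was Gata4, at 224 CPM in WT and 207 CPM in KD EBs. Of the 8 higher, Sox7 and Thbd were called in only 3 and 1 of 6 fits with 1 library left out. Endothelial markers summed to between 138 and 147 CPM in WT and between 262 and 280 CPM in KD EBs, with 7 of 8 higher, 1 lower and Emcn at 0 in WT EBs. The lower one was Pecam1, which fell from 36.1 to 16.2 CPM. Visceral endoderm markers summed to between 105 and 107 CPM in WT and between 227 and 234 CPM in KD EBs, with 1 of 6 higher and 2 lower. The higher sum came from Ttr, the transthyretin gene, at 49.7 CPM in WT and 180 CPM in KD EBs. Afp read 5.99 and 6.04 CPM, Apoa1 and Amn fell, and Afp, Cubn and Hnf4a did not pass. The part of these cell types in the type 4 results was not tested.

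Type 6 collagen, the beaded filament of the cell surface and pericellular matrix, is built from the chains of Col6a1, Col6a2 and a longer chain such as that of Col6a3. Col6a1 read 24.1, 25.7 and 26.8 CPM in WT and 13.2, 11.7 and 13.7 CPM in KD EBs, a 1.98-fold fall (log2 fold change −0.99, SE 0.09, adjusted p = 1.65e-10 by edgeR). Col6a2 read 13.1, 12.5 and 14 CPM in WT and 4.13, 4.34 and 3.74 CPM in KD EBs, a 3.24-fold fall (log2 fold change −1.70, SE 0.14, adjusted p = 1.18e-11 by edgeR). Col6a3 went the other way, from 0.841, 0.517 and 0.604 CPM in WT to 10.7, 9.36 and 9.67 CPM in KD EBs, a 15.1-fold rise (log2 fold change 3.92, SE 0.22, adjusted p = 8.64e-16 by edgeR). For none of the 3 did the groups overlap. Thus the neighbouring pair on chromosome 10 fell while the longer chain, encoded on chromosome 1, rose.

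Fibril-associated collagens coat fibrils and link them to other matrix. Col14a1, found on fibrils of skin and tendon, read 2.90, 1.68 and 2.88 CPM in WT and 23.2, 24.3 and 24.9 CPM in KD EBs, a 9.66-fold rise (log2 fold change 3.27, SE 0.15, adjusted p = 2.16e-17 by edgeR). Col12a1, its relative on type 1 fibrils, read 2.83, 2.65 and 3.48 CPM in WT and 13.2, 14.3 and 15.4 CPM in KD EBs, a 4.76-fold rise (log2 fold change 2.25, SE 0.15, adjusted p = 7.53e-14 by edgeR). Both were low in all WT libraries. The type 9 genes of cartilage fibrils fell. Col9a1 read 20.2, 22.6 and 21.5 CPM in WT and 9.87, 8.77 and 11.7 CPM in KD EBs (log2 fold change −1.08, SE 0.11, adjusted p = 5.51e-10 by edgeR), and Col9a2 read 23.9, 20.5 and 23.2 CPM in WT and 9.19, 9.62 and 11.3 CPM in KD EBs (−1.16, SE 0.11, adjusted p = 6.16e-11 by edgeR). Col16a1, another fibril-associated chain, read 8.25, 8.4 and 9.43 CPM in WT and 4.22, 6.11 and 4.87 CPM in KD EBs (log2 fold change −0.78, SE 0.16, adjusted p = 1.59e-04 by edgeR). Each of these 3 had all KD libraries below all WT libraries.

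Col8a2 showed the largest fall. It encodes a chain of type 8, a short-chain network former known from the membrane under the corneal endothelium and from vessel walls. The WT EB libraries read 45.7, 47.9 and 45.2 CPM and the KD EB libraries 6.49, 5.98 and 6.11 CPM, a 7.46-fold difference (log2 fold change −2.90, SE 0.09, adjusted p = 2.01e-22 by edgeR). Col18a1, the most abundant collagen transcript of WT EBs, read 689, 683 and 717 CPM in WT and 304, 316 and 320 CPM in KD EBs, a 2.22-fold fall (log2 fold change −1.15, SE 0.03, adjusted p = 1.06e-23 by edgeR). Both genes were lower in every KD library. Smooth muscle markers summed to between 234 and 236 CPM in WT and between 545 and 561 CPM in KD EBs. Of these 6 markers 1, Acta2, was higher and 4 were lower, against 28% and 27.7% of all tested genes. Their part in the vessel wall collagens was not tested.

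Transmembrane collagens stay on the cell surface and can be shed. Col23a1 read 12.2, 12.7 and 11.2 CPM in WT and 25.2, 27.1 and 30.5 CPM in KD EBs, a 2.29-fold rise (log2 fold change 1.20, SE 0.10, adjusted p = 3.34e-12 by edgeR). Col13a1 read 11.8, 10.6 and 12.2 CPM in WT and 4.5, 4.14 and 5.57 CPM in KD EBs, a 2.44-fold fall (log2 fold change −1.28, SE 0.15, adjusted p = 1.36e-08 by edgeR). These 2 genes moved apart without overlap. Col17a1 and Col25a1, the other two of this class, did not pass (log2 fold changes −1.66 and −0.45, adjusted p = 0.0505 and 0.0890 by edgeR). Among remaining members, named after their values were seen, Col7a1 of the anchoring fibril fell by 0.72, Col9a3 by 0.58 and Col26a1 by 0.26 on the log2 scale. Col27a1 rose by 0.59, and Col15a1, a multiplexin under 1 CPM in both groups, rose by 1.31 with a call in 2 of 6 fits with 1 library left out. The 6 members that were not tested in EBs, among them Col4a3, Col10a1 and Col19a1, had 18 or fewer counts in each EB group.

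**Figure D3:**
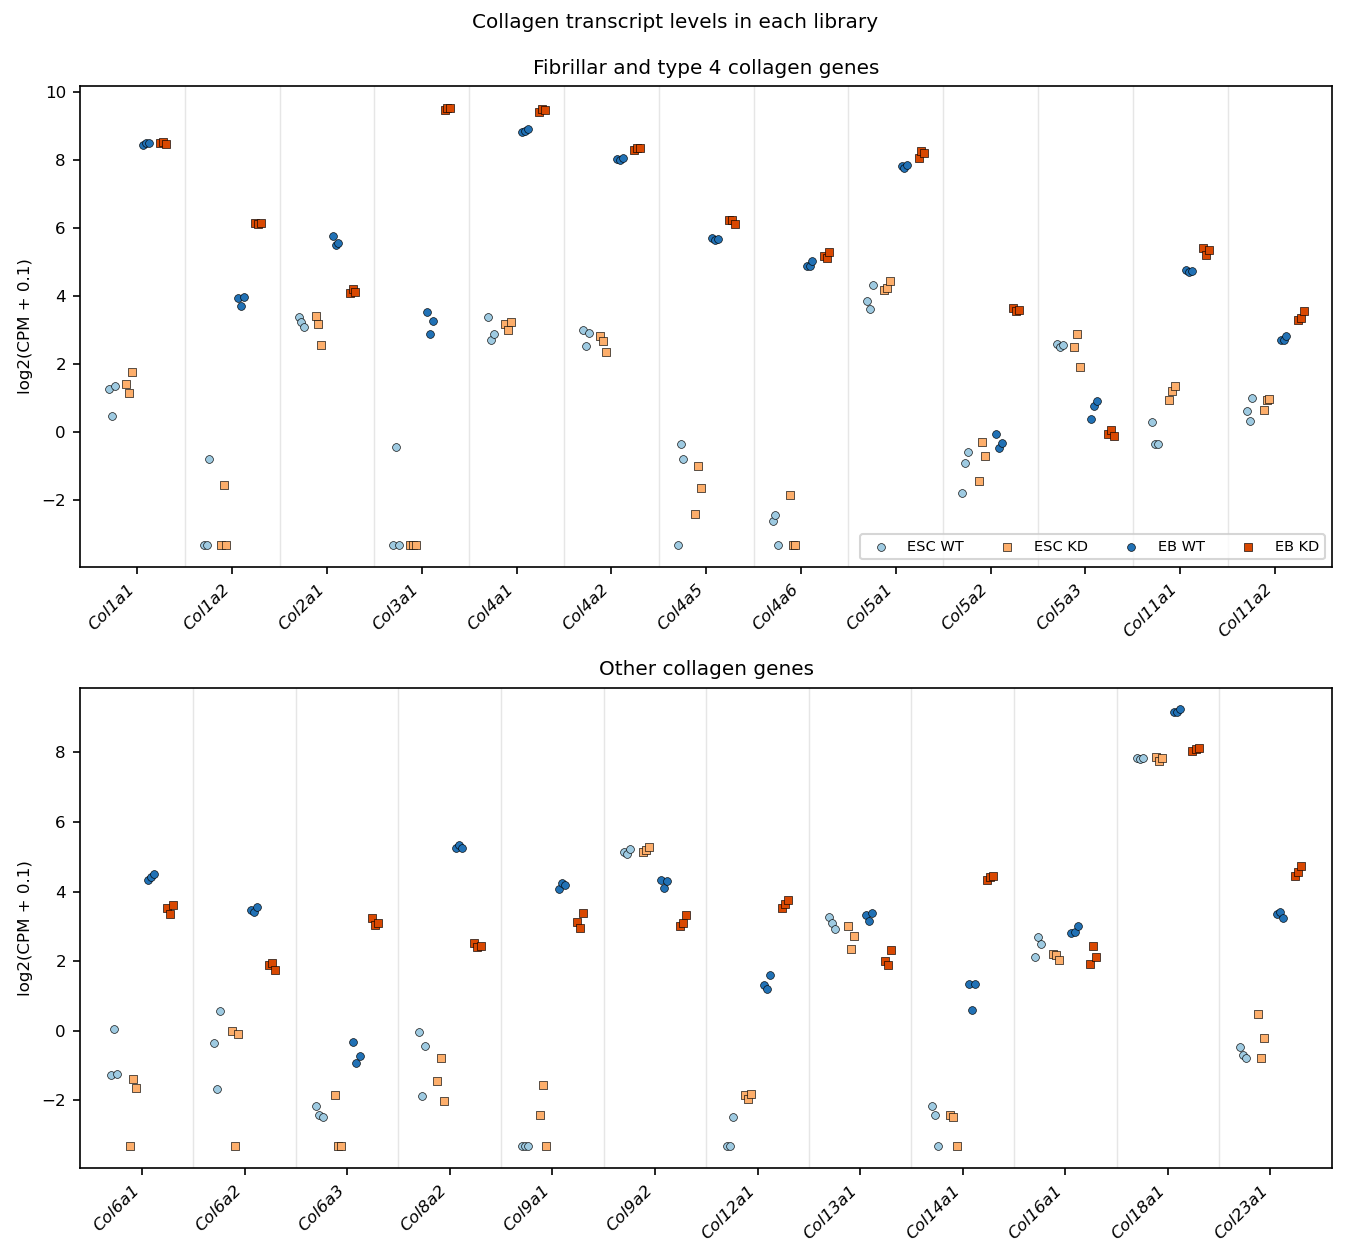
Level of 25 collagen genes in each of the 12 libraries, as log2(CPM + 0.1) on a scale shared by all libraries (y axis), with WT as circles, KD as squares, ESCs in pale and EBs in dark colour. The 3 KD EB points of Col3a1, Col5a2, Col6a3 and Col14a1 stand above the WT EB points, those of Col8a2, Col18a1 and Col2a1 stand below, and those of Col1a1 overlap.

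The order of collagen transcripts per kilobase of exon was not the same in WT and KD EBs. In WT EBs Col18a1 led at 83.0 ± 2.45 CPM per kb, followed by Col4a1 at 62.0 ± 2.00, Col1a1 at 54.0 ± 0.96, Col4a2 at 39.1 ± 0.84 and Col5a1 at 26.3 ± 0.90. In KD EBs Col4a1 led at 93.9 ± 2.82 CPM per kb, followed by Col3a1 at 73.5 ± 1.90, Col1a1 at 54.8 ± 0.95, Col4a2 at 48.6 ± 1.20 and Col18a1 at 38.9 ± 1.23. No 2 neighbours among these first 5 overlapped in their range over libraries in either group. Further down in WT EBs, Col8a2, Col2a1 and Col4a5 lay between 8.63 and 7.58 CPM per kb, and each overlapped the next.

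Chains of 1 collagen type are secreted together, so ratios of their transcripts were computed within each library. Per kilobase, the ratio of Col1a1 to Col1a2 was 43.2, 52.5 and 43.5 in WT EBs and 9.70, 10.0 and 9.44 in KD EBs, a mean of 46.4 ± 5.27 against 9.72 ± 0.29 (SD, n = 3). The ratio of Col5a1 to Col5a2 was 293, 394 and 374 in WT and 24.5, 29.3 and 27.8 in KD EBs, a mean of 354 ± 53.5 against 27.2 ± 2.48. In both types the excess of the first chain was smaller in every KD library. Col4a1 to Col4a2 stood at 1.58 ± 0.05 in WT and 1.93 ± 0.02 in KD EBs, and Col6a1 to Col6a2 at 3.68 ± 0.20 and 6.06 ± 0.92. The size of a ratio depends on the gene lengths used, which cover all annotated exons. Without gene length, Col1a1 to Col1a2 had means of 24.5 in WT and 5.13 in KD EBs, and Col5a1 to Col5a2 of 313 and 24.1. Col4a1 to Col4a2 then had means of 1.79 and 2.18, and Col6a1 to Col6a2 of 1.94 and 3.19. These 4 ratios did not overlap between the groups, and each had the smallest p that 3 against 3 libraries allow in an exact 2-sided permutation test (p = 0.1, Benjamini-Hochberg adjusted p = 0.15 over 6 ratios), so the design cannot reach the threshold. In ESCs Col4a1 to Col4a2 was 1.01 ± 0.14 in WT and 1.29 ± 0.30 in KD cells (exact permutation p = 0.3), and Col5a1 to Col5a2 was 53.4 ± 29.7 and 50.8 ± 23.6 (exact permutation p = 1).

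**Figure D4:**
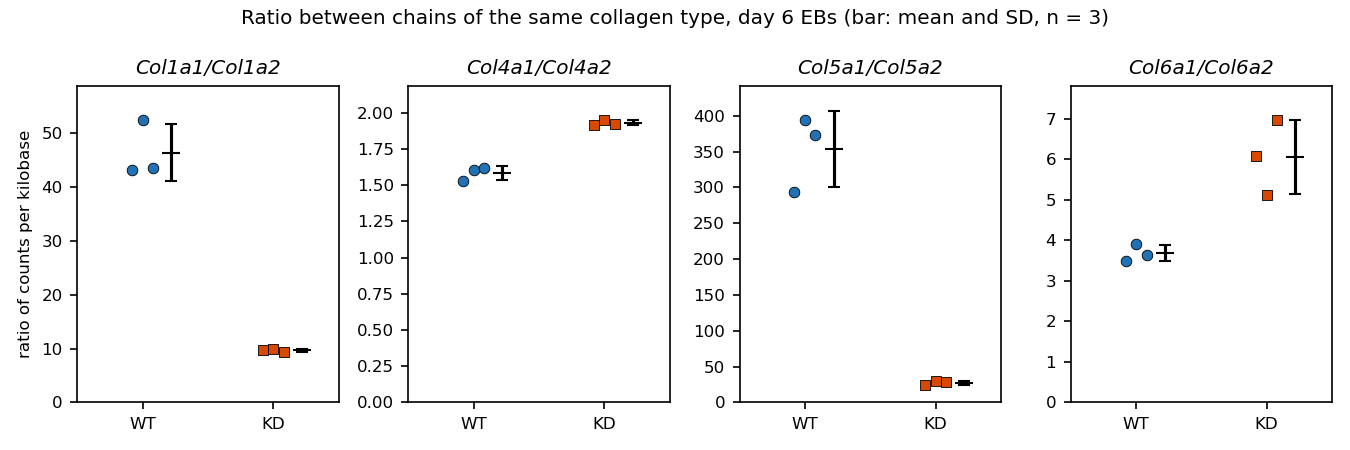
Ratio of counts per kilobase between 2 chains of the same collagen type in each day 6 EB library (y axis, from 0), for WT (blue circles) and KD (orange squares), with the mean and SD beside the points (n = 3). The KD points of Col1a1/Col1a2 and Col5a1/Col5a2 lie below all WT points, and those of Col4a1/Col4a2 and Col6a1/Col6a2 above.

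The KD effect in EBs was set against that in ESCs to ask whether it depends on differentiation. This difference was called for 17 of 39 tested members, 9 higher and 8 lower (edgeR), a share of 43.6% against 23% of all tested genes. Over all tested genes 12.8% were called higher and 10.2% lower. The 5 members with the smallest p were Col18a1, Col9a2, Col5a2, Col27a1 and Col2a1, and each was called in all 12 fits that left out 1 library. Of the 17 members, only 7 were called in all 12 fits. On the scale of all 12 libraries, Col18a1 read 230, 222 and 228 CPM in WT ESCs and 234, 216 and 228 CPM in KD ESCs. It then read 576, 570 and 602 CPM in WT EBs and 264, 276 and 281 CPM in KD EBs. Its rise into EBs was thus 2.57-fold in WT and 1.21-fold in KD cells, and the difference was −1.08 on the log2 scale (SE 0.07, adjusted p = 8.49e-08 by edgeR).

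Col9a2 fell into EBs by 0.90 in WT and by 2.07 in KD cells on the log2 scale, a difference of −1.16 (SE 0.15, adjusted p = 4.96e-05 by edgeR). Its ESC libraries read 34.8, 33.7 and 37.2 CPM in WT and 35.1, 36.7 and 38.4 CPM in KD cells on the scale of all 12 libraries, which overlapped. Col27a1 stood lower in KD than in WT ESCs and higher in KD than in WT EBs, at 11.8, 11.1 and 11.9 CPM in WT and 18.4, 17.5 and 18.9 CPM in KD EBs on the scale of all 12 libraries. The difference of its KD effect was 1.44 (SE 0.24, adjusted p = 4.49e-04 by edgeR). For Col5a2 it was 3.62 (SE 0.54, adjusted p = 0.00021 by edgeR) and for Col2a1 −1.32 (SE 0.23, adjusted p = 7.43e-04 by edgeR). Col3a1, with counts in only 1 ESC library, had an adjusted p of 0.0177 in edgeR and lost its call without ESC WT replicate 2 (adjusted p = 0.9998 by edgeR), so its size in this contrast is not given. Without that library 16 members were called in place of 17.

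Genes that handle procollagen were followed from lists chosen for their role. Their counts in KD EBs stand beside 55.7% of all tested genes called, 28% higher and 27.7% lower. Of 22 genes for hydroxylation, folding and export, 13 rose and 3 fell (median log2 fold change 0.42). P4ha3, a prolyl 4-hydroxylase subunit, rose by 1.64 (SE 0.18), Crtap, a partner of prolyl 3-hydroxylase, by 1.15 (SE 0.06) and the peptidyl-prolyl isomerase Fkbp14 by 0.94 (SE 0.09), with adjusted p by edgeR from 3.76e-17 to 6.08e-09. P4ha3 was low, at 2.89 CPM in WT and 9.02 CPM in KD EBs. P4ha1, a more abundant subunit named after its values were seen, fell from 190 to 129 CPM (log2 fold change −0.56, SE 0.04). P4ha2 did not pass. Of 6 tested genes for propeptide cleavage 5 rose and 0 fell, with a median of 0.86, against 28% of all tested genes called higher. Pcolce, the enhancer of the C-proteinase, rose from 10.1 ± 2.04 to 48.5 ± 3.51 CPM (log2 fold change 2.26, SE 0.11), the C-proteinase gene Bmp1 from 39.2 ± 0.96 to 90.1 ± 3.11 CPM (1.20, SE 0.05), and Pcolce2 by 0.96 (SE 0.28, adjusted p = 0.00396 by edgeR).

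Cross-linking enzymes moved both ways, with 3 of 5 tested higher and 2 lower, as calls over all tested genes also did (28% higher and 27.7% lower). The lysyl oxidase family member Loxl2 rose by 0.75 (SE 0.05), while Loxl3 fell by 0.70 (SE 0.12) and Loxl4 by 1.26 (SE 0.33). Small leucine-rich proteoglycans, which bind fibrils and set their width, had 3 of 9 genes tested. Lum rose from 0.698 ± 0.24 to 39.6 ± 1.89 CPM (log2 fold change 5.81, SE 0.14) and Dcn from 0.529 ± 0.14 to 8.92 ± 0.39 CPM (4.06, SE 0.23), while Bgn fell by 1.77 (SE 0.20). Lum and Dcn also stand in the mesenchyme marker list.

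Collagen receptors had 5 of 10 tested genes higher and 2 lower, a called share not far above the 55.7% of all tested genes. The receptor kinase Ddr2 rose by 3.54 (SE 0.52), and the integrin chains Itga10 and Itga1 by 1.95 (SE 0.35) and 1.70 (SE 0.16). Levels were low, from 0.211 to 2.45 CPM for Ddr2 and from 0.769 to 3.03 CPM for Itga10. The 2 receptors that fell were named after their values were seen. Ddr1, also a receptor kinase, fell from 187 to 116 CPM (log2 fold change −0.69, SE 0.04), and Adgrg1 from 8.83 to 4.90 CPM. Of 8 tested collagen-degrading enzymes and inhibitors 5 rose and 1 fell, against 28% and 27.7% of all tested genes. The largest rises in the list were those of the gelatinase Mmp9 (log2 fold change 2.07, SE 0.10), the inhibitor Timp3 (1.82, SE 0.09) and the cathepsin Ctsk (1.51, SE 0.47, adjusted p = 0.00744 by edgeR, called in 5 of 6 fits with 1 library left out). The 1 that fell, named after its values were seen, was Mmp2, from 180 to 141 CPM (log2 fold change −0.35, SE 0.04). Transcription factors known for collagen genes had 4 of 10 higher and 3 lower, again not far above the 55.7% of all tested genes called. Twist1 and Prrx1, which mark mesenchyme, rose by 2.52 (SE 0.06) and 2.20 (SE 0.08), and Sox6, a cofactor of Sox9 at Col2a1, by 2.13 (SE 0.11). The 3 that fell, named after their values were seen, were Scx, a tendon factor, by 2.12 (SE 0.32), Sp7, a bone factor, by 1.19 (SE 0.49, called in 2 of 6 fits with 1 library left out), and Sox9 by 0.32 (SE 0.08). In ESCs 0 genes of these 7 lists were called, as against 0.603% of all tested genes.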

How the data were processed

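Poly-A selected RNA of 12 libraries in 4 groups of 3 was measured. The authors deposited raw counts for each gene in a separate table for ESCs and for EBs. HISAT2 2.1.0 (alignment to mm10), featureCounts 2.0.3 (counting) and DESeq2 1.18.1 appear in the submitters' processing notes. Counting used the Ensembl release 90 annotation with no strand option, per the file headers, so overlapping genes can share counts. How multiply aligned reads were treated is not given in the sources used here.

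Counts of all genes were fitted with edgeR 4.0.16 in R 4.3.3 (quasi-likelihood test, TMM normalization, filterByExpr with a minimum count of 10 and a total of 15, robust dispersion), and p-values were adjusted by Benjamini-Hochberg over all tested genes, with calls at an adjusted p under 0.05. KD minus WT used the 6 libraries of a stage; the other contrasts used all 12 libraries in 4 groups, and CPM follow the same normalizations. Standard errors were derived from the log2 fold change and its F statistic. The filter keeps genes through whichever group is high, so members that passed are not all members. Gene lengths and positions were those deposited with the counts, from the Ensembl release 90 annotation. Scripts were tested on simulated data. The errors cover the spread between these libraries. A floor of 3 counts covers counting error only, and less of it if mates were counted singly. SDs are over 3 libraries.

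The members, classes and gene lists were chosen with earlier results of these data known. Values per library were given for fibrillar and type 4 genes with a mean of at least 1 CPM in a group, for the 12 other called genes of that level with the largest change in EBs, for any member called in ESCs, and for the 5 members with the smallest p for the difference between stages. From each pathway list up to 3 called genes with the largest change in EBs and at least 1 CPM were named. Alternatives were DESeq2 1.42.0, scaling by library size, no filter, a replicate block, a fit of all 12 libraries, each library left out, and ratios without gene length.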

Additional observations from a re-analysis of the deposited data

Results flagged for a closer look

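The KD effect on collagen transcripts in EBs was not that in ESCs for 17 of 39 tested members, by a direct test of the difference of the effects (edgeR, adjusted p under 0.05, against 23% of all tested genes). Only 7 of the 17 were called in every fit with 1 library left out. Chosen by smallest p, 5 of them are listed with EB effect minus ESC effect on the log2 scale. Col18a1 differed by −1.08, with KD and WT ESCs overlapping and all KD EB libraries below all WT EB libraries. Col9a2 differed by −1.16, again with overlap in ESCs and lower KD libraries in EBs. Col2a1 differed by −1.32, from overlapping ESC levels to lower levels in each KD EB library. Col5a2 differed by 3.62, from under 1 CPM in every ESC library to higher levels in each KD EB library. Col27a1 differed by 1.44, with KD below WT in each ESC library and above WT in each EB library. The causes of these differences were not tested.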

How the results depend on the processing

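In ESCs the count of called collagen genes was 0, and it was 1 with DESeq2 (Col27a1), 2 without a filter (Col17a1 and Col27a1), 4 in a fit of all 12 libraries (Col11a1, Col12a1, Col25a1 and Col27a1) and from 0 to 1 with each library left out, the 1 being Col17a1 without ESC WT replicate 2. Over all genes the ESC count of 97 was 1030 with DESeq2, 36 by library size, 1769 without a filter, 1999 when fitted over 12 libraries and from 8 to 1557 with a library left out, the highest being without ESC WT replicate 2. In EBs between 25 and 30 collagen genes were called in every setting tried, between 30 and 35 from WT ESCs to WT EBs, between 34 and 37 from KD ESCs to KD EBs, and between 12 and 18 for the difference of the KD effect. Small log2 values changed sign. In ESCs Col2a1 ranged from −0.34 to 0.057 with each library left out (the latter without ESC KD replicate 3), and Col18a1 from −0.025 to 0.034, and Col18a1 was −0.011 with DESeq2 and −0.0067 when fitted over 12 libraries. In EBs Col1a1 was 0.022 when fitted over 12 libraries. From KD ESCs to KD EBs Col16a1 ranged from −0.11 to 0.16 with a library left out, and was below 0 without ESC KD replicate 3 (−0.078) or EB KD replicate 2. From WT ESCs to WT EBs Col16a1 was called without ESC WT replicate 2 (0.54), and Col13a1 and Col16a1 were called by library size. Scaling by library size moved the median of all genes by 0.53 from WT ESCs to WT EBs, 0.37 in KD cells, 0.11 in ESCs and −0.16 for the difference of the KD effect, and the share of calls that were higher went from 53.3% to 65.2% in WT, from 53.2% to 61.9% in KD cells and from 55.6% to 35.3% for the difference. Same-numbered libraries did not deviate together (correlations from −0.05 to 0.07), so the numbers were not read as pairs; with a replicate block 30 collagen genes were called in EBs, 0 in ESCs and 15 for the difference, and 266 genes of all in ESCs. The chain ratios in EBs kept their direction without gene length and with each library left out. Groups that do not overlap cannot reverse under these settings, so this was no test of the ratios. Low ESC counts limit precision: 18 members were not tested there.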
